A study of Mus musculus with 12 samples.

Results

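Serine, glycine and one-carbon metabolism was followed through 10 enzyme genes in primordial germ cells (PGCs) of the mouse embryo, from which eggs and sperm descend. The genes were taken by name: Phgdh, Psat1, Psph, Shmt1, Shmt2, Mthfd1, Mthfd2, Gldc, Tdh and Mat2a. All 10 were found among the 22552 genes of the 3 stage tables and the 16394 genes of the Tet1 table, and all 10 had a completed test in each of the 4 tables. The PGCs were of strain C57BL/6. Wild-type groups were E9.5 (embryonic day 9.5), with 2 libraries, E11.5, likewise with 2, and E13.5m (E13.5), with 3. Tet1 -/- cells (Tet1-KO), which lack an enzyme that oxidises 5-methylcytosine, were taken at E13.5 with 2 libraries, and were set against wild-type cells labelled WT, also at E13.5, with 3. The E13.5f group is named in a stage table and in no sample title. No label gives the Tet1 allele's construction, how PGCs were sorted or whether the libraries of a group are separate embryos, and the spread behind the tests may be technical.

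These enzymes make serine and glycine and move single carbon units on folate. Phgdh, Psat1 and Psph encode the serial steps from a glycolytic intermediate to serine. Shmt1 in the cytosol and Shmt2 in mitochondria convert serine to glycine and load folate, Gldc takes glycine apart in mitochondria, and Tdh starts the breakdown of threonine to glycine and acetyl-CoA, a route that mouse embryonic stem cells depend on. Mthfd1 in the cytosol and Mthfd2 in mitochondria interconvert the loaded folates used to build purines and thymidylate, and Mat2a makes S-adenosylmethionine, the methyl donor for DNA and histone methylation.

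Each level below is the authors' pooled FPKM (fragment counts corrected for the length of the transcript and for the size of the library) for a group, so no spread over libraries can be shown and the depth is unknown. Each log2 ratio carries a standard error (SE) derived from the deposited Cuffdiff test, and a call is a deposited q-value (stage tables) or FDR (Tet1 table) under 0.05. In bulk RNA, fewer cells of a type and less RNA per cell cannot be told apart. Germ cell identity was checked with 10 markers, none of which was at 0 in any group. Their summed level was 2875 FPKM at E9.5, between 2971 and 3416 FPKM at E11.5, 5366 FPKM for E13.5m and 3887 FPKM for E13.5f, and stood at 2940 FPKM in Tet1-KO and 4072 FPKM in WT. These sums keep each table's own scale, so the E11.5 range is the same libraries scaled differently, and 2875 FPKM belongs with 3416 FPKM. Single markers were called: 2 higher from E9.5 to E11.5 and 1 higher from E11.5 to E13.5f. From E11.5 to E13.5m 1 was higher and 3 lower (Dazl, Tcfap2c, Kit and Sall4). In Tet1-KO 1 was higher (Tcfap2c) and 1 lower (Dazl). Tet1 was at 0.218 FPKM in Tet1-KO and 6.36 FPKM in WT. Markers of gonadal somatic cells summed to no more than 24.9 FPKM in any group.

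Of the 10 genes, 8 or 9 lay above the 75th percentile of tested genes in every column, and Phgdh was the lowest throughout. On the scale of the E13.5f table, Psat1, the serine pathway aminotransferase, was at 206 FPKM at E9.5, 217 FPKM at E11.5, then 188 FPKM for E13.5m and 369 FPKM for E13.5f. Phgdh, which commits carbon to serine, was at 16.7 FPKM at E9.5, 13.4 FPKM at E11.5, then 7.45 FPKM for E13.5m and 7.65 FPKM for E13.5f. Both genes belong to the same short pathway, yet Psat1 exceeded Phgdh in every group, by 12.4 times at E9.5 and by 48.2 times in E13.5f. Psph, the final phosphatase, lay between them at 54.2 FPKM at E9.5, 50.7 FPKM at E11.5, then 56.5 FPKM for E13.5m and 71.9 FPKM for E13.5f.

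**Figure D1:**
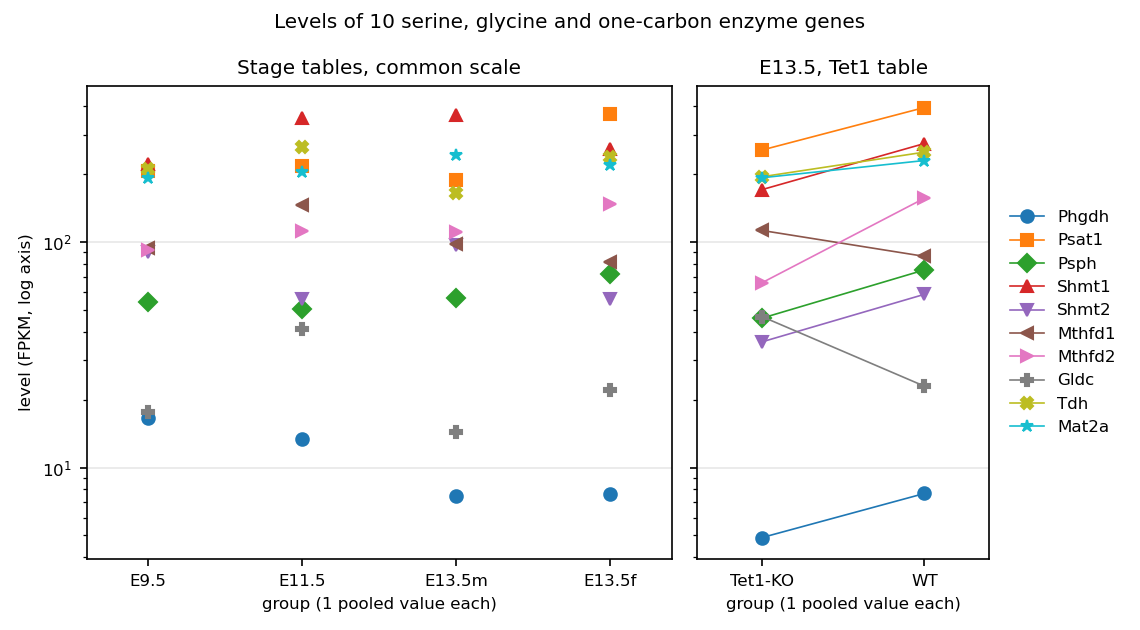
Level of each of the 10 enzyme genes (FPKM, log axis) in E9.5, E11.5, E13.5m and E13.5f cells on a common scale, and in Tet1-KO and WT cells on the scale of their own table. Each point is the authors' pooled value of a group; lines join the values of a gene in Tet1-KO and WT, where Gldc and Mthfd1 are higher and the other 8 genes lower in Tet1-KO (relative to the median ratio, Tdh and Mat2a are not lower).

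Among the stage groups the highest level of a gene exceeded its lowest by 1.26 times for Mat2a, the narrowest range, and by 2.85 times for Gldc, the widest. Gldc encodes the glycine decarboxylase of the glycine cleavage system and was at 17.7 FPKM at E9.5, 41.1 FPKM at E11.5, then 14.4 FPKM for E13.5m and 22.1 FPKM for E13.5f. Its level was highest at E11.5 and lowest in E13.5m. Tdh stood at 210 FPKM at E9.5, 265 FPKM at E11.5, then 166 FPKM for E13.5m and 239 FPKM for E13.5f. Mat2a was at 192 FPKM at E9.5, 204 FPKM at E11.5, then 243 FPKM for E13.5m and 221 FPKM for E13.5f.

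In the first stage comparison, which asked what changed as migrating cells reached the gonad, 0 of the 10 genes were called in the authors' deposited table, against 5.63% of the 12904 genes tested. Gldc came closest, at 47.2 FPKM at E11.5 and 20.4 FPKM at E9.5, a log2 ratio of 1.21 ± 0.48 (SE) with an adjusted p of 0.119 in the authors' deposited table. It was the 1 gene of the 10 with an unadjusted p under 0.05 there, a level that 19.8% of all tested genes reached. The serine hydroxymethyltransferase pair diverged in value without a call. Shmt1 was at 407 FPKM at E11.5 and 256 FPKM at E9.5 (log2 ratio 0.67 ± 0.43, SE), and Shmt2 at 64.5 FPKM at E11.5 and 104 FPKM at E9.5 (log2 ratio -0.69 ± 0.45, SE).

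The median change of the 10 genes was 0.18 in log2(FPKM + 1), and that of all tested genes was 0.29. With SEs from 0.43 to 0.61, the 95% interval of 8 of the 10 log2 ratios reached beyond a doubling or a halving and did not exclude changes of that size. Blood markers moved in the same comparison: the 12 markers summed to 30.6 FPKM at E11.5 and 2183 FPKM at E9.5, led by the embryonic globin gene Hbb-y. The leukocyte gene Ptprc was at 0 FPKM in both groups, Csf1r and Hbb-b1 were at 0 FPKM at E9.5, and Gata1 was at 0 FPKM at E11.5. Of 3 tested endothelium markers 2 rose, Esam to 10.1 FPKM at E11.5, against 0.141 FPKM at E9.5, and Tek to 1.64 FPKM at E11.5, against 0.104 FPKM at E9.5. The 6 markers of that list summed to 82.9 FPKM at E11.5 and 60.6 FPKM at E9.5, with Kdr and Tie1 at 0 FPKM in both groups and Cdh5 at 0 FPKM at E9.5. Most of these sums was Pecam1, also a known PGC surface gene, at 70.8 FPKM at E11.5 and 60.4 FPKM at E9.5. The part of blood and endothelial cells in the values of the enzyme genes was not tested.

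From E11.5 to E13.5f, again 0 of the 10 genes were called in the authors' deposited table, while 12.0% of the 12448 tested genes were. Mthfd1, the cytosolic trifunctional folate enzyme, was at 82.0 FPKM in E13.5f and 145.7 FPKM at E11.5, a log2 ratio of -0.83 ± 0.39 (SE) with an adjusted p of 0.153 in the authors' deposited table. Gldc was at 22.1 FPKM in E13.5f and 41.1 FPKM at E11.5, a log2 ratio of -0.90 ± 0.44 (SE) with an adjusted p of 0.168 in that deposited table of the authors. These 2 genes had an unadjusted p under 0.05, as did 26.5% of all tested genes. Psat1 had the largest positive ratio, at 369 FPKM in E13.5f and 217 FPKM at E11.5, a log2 ratio of 0.77 ± 0.40 (SE) with a 95% interval from -0.01 to 1.54. Shmt2 was at 56.2 FPKM in E13.5f and 56.1 FPKM at E11.5, with an interval of the log2 ratio from -0.84 to 0.84. The median change of the 10 genes was -0.07 in log2(FPKM + 1), and that of all tested genes 0.22. Some markers of other cells moved here too. Both tested endothelium markers fell, Esam to 0.894 FPKM in E13.5f, against 8.81 FPKM at E11.5, and Tek to 0.111 FPKM in E13.5f, against 1.43 FPKM at E11.5. The endothelium list summed to 68.8 FPKM in E13.5f and 72.1 FPKM at E11.5, nearly all of it Pecam1, with Tie1 at 0 FPKM in both groups and Kdr at 0 FPKM at E11.5. Of 6 tested blood markers 1 was called, Hba-x, which fell to 0.173 FPKM in E13.5f, against 8.60 FPKM at E11.5. The blood list summed to 6.09 FPKM in E13.5f and 26.6 FPKM at E11.5, with Ptprc at 0 FPKM in both groups. Within it Cd68 was at 2.00 FPKM in E13.5f and 0.878 FPKM at E11.5 without a call. The gonadal soma list summed to 5.72 FPKM in E13.5f and 3.82 FPKM at E11.5, with 0 of 6 tested markers called. The part of these cells in the values of the enzyme genes was not tested.

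From E11.5 to E13.5m, Gldc fell and was the 1 gene called of the 10, where 4.88% of the 12311 tested genes were called, 1.94% lower in E13.5m. Gldc was at 14.8 FPKM in E13.5m and 42.1 FPKM at E11.5, 2.85-fold lower, with a log2 ratio of -1.51 ± 0.47 (SE) and an adjusted p of 0.0314 in the authors' deposited table. Its change in log2(FPKM + 1) lay at percentile 3.02 of all tested genes. Among the other 9 genes, log2 ratios ran from -0.84 for Phgdh to 0.79 for Shmt2, with adjusted p-values of 0.337 or more in the authors' deposited table. Shmt2 was at 99.3 FPKM in E13.5m and 57.5 FPKM at E11.5, a log2 ratio with a 95% interval from -0.06 to 1.64. Both E13.5 comparisons use the same E11.5 libraries, so their ratios are not independent. Gonadal soma markers summed to 24.9 FPKM in E13.5m and 3.91 FPKM at E11.5, with Foxl2 and Wnt4 at 0 FPKM in E13.5m. Of 9 tested soma markers 2 rose, Amh to 4.01 FPKM in E13.5m, against 0.129 FPKM at E11.5, and Rspo1 to 7.38 FPKM in E13.5m, against 0.471 FPKM at E11.5. Of 2 tested endothelium markers Esam fell, to 0.503 FPKM in E13.5m, against 9.03 FPKM at E11.5, and Tek was at 0.0898 FPKM in E13.5m and 1.46 FPKM at E11.5 without a call. The endothelium list summed to 41.3 FPKM in E13.5m and 73.8 FPKM at E11.5, with Tie1 at 0 FPKM in both groups. Most of these sums was the PGC surface gene Pecam1, at 40.5 FPKM in E13.5m and 63.1 FPKM at E11.5. The blood list summed to 41.4 FPKM in E13.5m, led by Hba-a1 at 19.1 FPKM, and to 27.2 FPKM at E11.5. Gata1 and Ptprc were at 0 FPKM in both groups, and of 6 tested blood markers 0 were called by Cuffdiff. The part of these cells in the fall of Gldc was not tested.

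**Figure D2:**
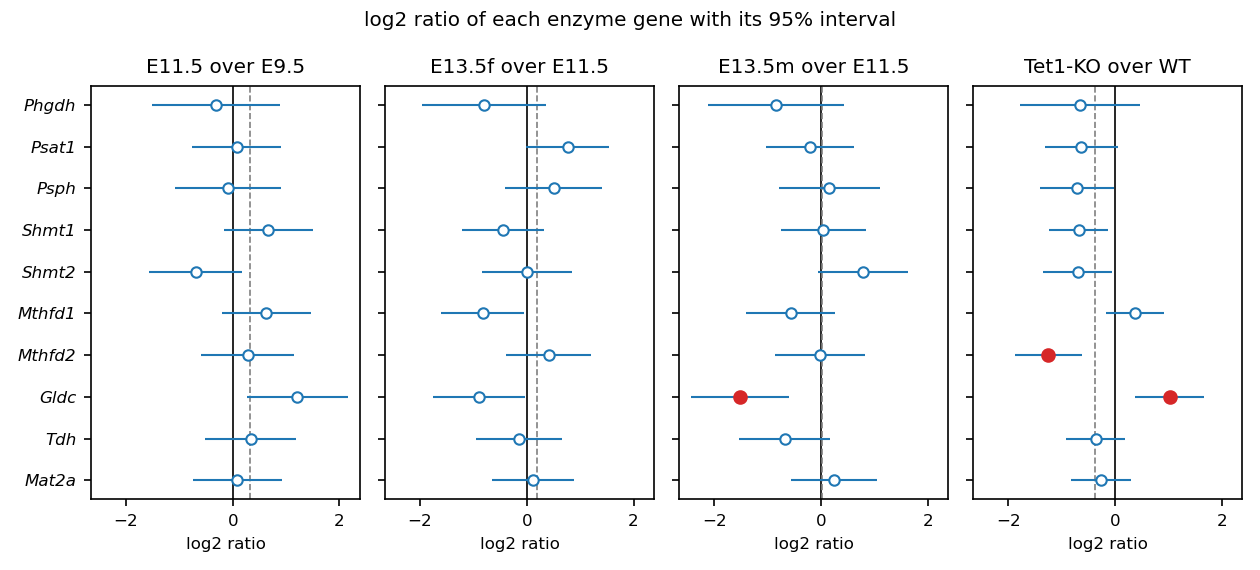
log2 ratio of each enzyme gene in the 4 comparisons, with the later stage or the knockout on top. Points are ratios of the pooled FPKM values, bars are 95% intervals from the SE the deposited test implies, filled red points had a deposited q-value or FDR under 0.05, and the dashed line is the median ratio of genes reaching 1 FPKM in both groups. Gldc in E13.5m and in Tet1-KO and Mthfd2 in Tet1-KO are the 3 filled points.

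The other parts of the glycine cleavage system, Amt, Gcsh and Dld, were looked at beside Gldc after the values were seen. Amt, the aminomethyltransferase, was at 3.23 FPKM in E13.5m and 13.7 FPKM at E11.5, a log2 ratio of -2.09 ± 0.86 (SE) with an adjusted p of 0.158 in the authors' deposited table. Gcsh, the lipoyl carrier protein, was at 126 FPKM in E13.5m and 248 FPKM at E11.5, a log2 ratio of -0.98 ± 0.47 (SE) with an adjusted p of 0.244 in the authors' deposited table. Dld, the dehydrogenase that this system shares with other mitochondrial complexes, was at 177 FPKM in E13.5m and 103 FPKM at E11.5, a log2 ratio of 0.78 ± 0.43 (SE). None of these 3 passed the test in E13.5m. In E13.5f, Amt (log2 ratio -0.87 ± 0.64, SE) and Gcsh (log2 ratio -0.81 ± 0.45, SE) were not called, while Dld rose to 244 FPKM, against 101 FPKM at E11.5, a log2 ratio of 1.28 ± 0.42 (SE). Relative to the table's median ratio the rise of Dld was no longer called, with an adjusted p of 0.0698.

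No deposited table set E13.5m against E13.5f, so the difference of their log2 ratios against E11.5 was tested over 11306 genes (normal test, two-sided, adjusted by Benjamini-Hochberg). Of the 10 genes 0 passed, and 0.150% of all genes passed. An unadjusted p under 0.05 was found for 0 of the 10 and for 3.64% of all genes. Psat1 had the largest difference, at a common-scale level of 188 FPKM in E13.5m against 369 FPKM in E13.5f, a log2 difference of -0.97 ± 0.58 (SE) with a 95% interval from -2.10 to 0.16. Shmt2 had the largest positive one, at 96.9 FPKM in E13.5m against 56.2 FPKM in E13.5f, a log2 difference of 0.79 ± 0.61 (SE) with an interval from -0.41 to 1.98. Gldc differed by -0.61 ± 0.64 (SE), so its call in E13.5m and not in E13.5f was not shown to differ between them. The median difference was -0.19 over the 10 genes and -0.24 over all genes. The E11.5 error enters this test from both ratios, which makes it conservative.

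Loss of Tet1 at E13.5 came with calls of 2 enzyme genes, in opposite directions. Mthfd2, the mitochondrial methylenetetrahydrofolate dehydrogenase, was 2.37-fold lower in Tet1-KO and Gldc was 2.04-fold higher. Both passed the authors' test, 2 of the 10 genes, where 6.16% of the 16394 tested genes were called, 5.48% lower and 0.677% higher in Tet1-KO. Mthfd2 (chromosome 6, 83255697 to 83267598, build mm9) was at 66.0 FPKM in Tet1-KO and 157 FPKM in WT, a log2 ratio of -1.25 ± 0.32 (SE). The FDR that the authors' deposited table lists for Mthfd2 is 0.00511, and adjusting their p-values again by Benjamini-Hochberg gave 0.00534. Gldc (chromosome 19, 30172936 to 30249908, build mm9) was at 46.8 FPKM in Tet1-KO and 23.0 FPKM in WT, a log2 ratio of 1.03 ± 0.33 (SE). For Gldc the FDR listed in the deposited table of the authors is 0.0351, and adjusting again gave 0.0359. The change of Gldc lay at percentile 98.8 of all tested genes, and that of Mthfd2 at percentile 4.11.

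In this comparison the median log2 ratio was -0.38, over genes that reached 1 FPKM in both groups. Tested relative to that median, Gldc was higher by 1.40 on the log2 scale and was still called, while Mthfd2, with a log2 ratio of -0.87 and an adjusted p of 0.108, was not. That test called 3.50% of the 13740 genes it covered. Endothelium markers summed to 99.3 FPKM in Tet1-KO and 72.4 FPKM in WT, of which Pecam1, also a known PGC surface gene, made up 98.5 FPKM in Tet1-KO and 71.3 FPKM in WT, and Kdr and Tek were at 0 FPKM in Tet1-KO. Gonadal soma markers summed to 12.2 FPKM in Tet1-KO and 5.68 FPKM in WT, and listed blood markers to 1.32 FPKM in Tet1-KO and 4.29 FPKM in WT, with Hbb-y and Gata1 at 0 FPKM in Tet1-KO. Their part in the values of Gldc and Mthfd2 was not tested.

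The promoters of these 2 genes are shown because they moved in opposite directions. Each is the 250 bases before the RefSeq start site (build GRCm38.p6), with CCAAT on either strand in capitals (ATTGG where it lies on the other strand).
Mthfd2 (chr6:83317605-83317854, minus strand): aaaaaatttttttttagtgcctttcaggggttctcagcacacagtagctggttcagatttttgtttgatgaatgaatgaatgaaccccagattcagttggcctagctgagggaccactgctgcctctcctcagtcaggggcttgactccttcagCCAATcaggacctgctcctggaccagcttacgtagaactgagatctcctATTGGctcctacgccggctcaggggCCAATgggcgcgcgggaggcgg
Gldc (chr19:30175442-30175691, minus strand): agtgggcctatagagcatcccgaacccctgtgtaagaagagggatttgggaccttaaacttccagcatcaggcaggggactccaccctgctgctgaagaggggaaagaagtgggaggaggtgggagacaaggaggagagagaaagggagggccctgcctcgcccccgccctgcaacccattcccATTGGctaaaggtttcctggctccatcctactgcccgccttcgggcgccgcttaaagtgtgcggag

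CCAAT, the letters bound by the factor NF-Y, begins 96, 47 and 22 bases before the start site of Mthfd2 and 66 bases before that of Gldc. Of the 10 genes 9 had a RefSeq promoter, and 8 of those 9 held CCAAT on either strand, against 33.8% of all 32851 promoters of that length. A count of 3 or more, as in Mthfd2, was found in 2.79% of all promoters. The GC box GGGCGG was in 5 of the 9, including Gldc and not Mthfd2, and in 32.7% of all promoters. The E-box CACGTG was in 0 of the 9 and in 6.02% of all promoters, and TGATGNAAN, letters of the composite site of ATF4, a stress factor that drives serine synthesis genes, was in 0 of the 9 and in 3.44%. No motif contains another, both strands were searched, and for Psat1 the first listed promoter was used. The second Psat1 promoter held 0 CCAAT and 1 GGGCGG, so the counts of these 2 motifs depend on that choice. The 32851 promoters include every listed promoter of a gene and were not matched for expression.

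The other 8 genes did not pass in Tet1-KO, and 7 of them had negative ratios, of which those of Tdh (0.02) and Mat2a (0.12) turned positive relative to the median ratio. Psat1 was at 256 FPKM in Tet1-KO and 396 FPKM in WT, a log2 ratio of -0.63 ± 0.34 (SE). Psph was at 46.0 FPKM in Tet1-KO and 75.3 FPKM in WT, a log2 ratio of -0.71 ± 0.35 (SE). Phgdh was at 4.89 FPKM in Tet1-KO and 7.67 FPKM in WT, a log2 ratio of -0.65 ± 0.58 (SE). The 3 ratios of the serine synthesis genes were close in value, but their SEs do not resolve whether they are equal, and none was called. Those of Shmt1 and Shmt2, given next, lay in the same range.

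Shmt1 was at 171 FPKM in Tet1-KO and 274 FPKM in WT, a log2 ratio of -0.68 ± 0.28 (SE), and Shmt2 at 36.1 FPKM in Tet1-KO and 58.7 FPKM in WT, a log2 ratio of -0.70 ± 0.33 (SE). Mthfd1 was the 1 uncalled gene with a positive ratio, at 113 FPKM in Tet1-KO and 86.5 FPKM in WT, a log2 ratio of 0.38 ± 0.28 (SE). Tdh was at 195 FPKM in Tet1-KO and 251 FPKM in WT, and Mat2a at 193 FPKM in Tet1-KO and 230.2 FPKM in WT. An unadjusted p under 0.05 was found for 5 of the 10 genes (Psph, Shmt1, Shmt2, Mthfd2 and Gldc) and for 21.4% of all tested genes. The median change in log2(FPKM + 1) was -0.59 over the 10 genes and -0.21 over all tested genes, with 8 of the 10 and 67.6% of all genes below 0. All tested genes include genes near 0 FPKM, whose change the pseudocount shrinks. As a log2 ratio, the median was -0.64 over the 10 genes and -0.38 over genes reaching 1 FPKM in both groups.

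The WT column and the E13.5f column hold nearly the same values. WT over E13.5f was at most 1.07 over the 10 genes, of which none was lower in WT, and its 5th and 95th percentiles over 10996 genes were 0.973 and 1.06. Whether the same libraries underlie both columns is not given in the sources used here, so WT and E13.5f cannot be counted as separate groups, and the Tet1-KO comparison and the E11.5 to E13.5f comparison are not independent.

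Ratios of isozymes within a group need no scale between tables. Mthfd2 over Mthfd1 was 0.974 at E9.5, 0.765 at E11.5, 1.12 in E13.5m and 1.81 in E13.5f, and it was 0.586 in Tet1-KO and 1.81 in WT. The mitochondrial gene thus exceeded the cytosolic one in the E13.5m, E13.5f and WT columns and lay below it in Tet1-KO. Shmt2 over Shmt1 was 0.406 at E9.5, 0.158 at E11.5, 0.264 in E13.5m and 0.216 in E13.5f, and it was 0.211 in Tet1-KO and 0.214 in WT. The cytosolic gene was thus the higher of that pair in every group. These ratios are descriptions with no test.

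**Figure D3:**
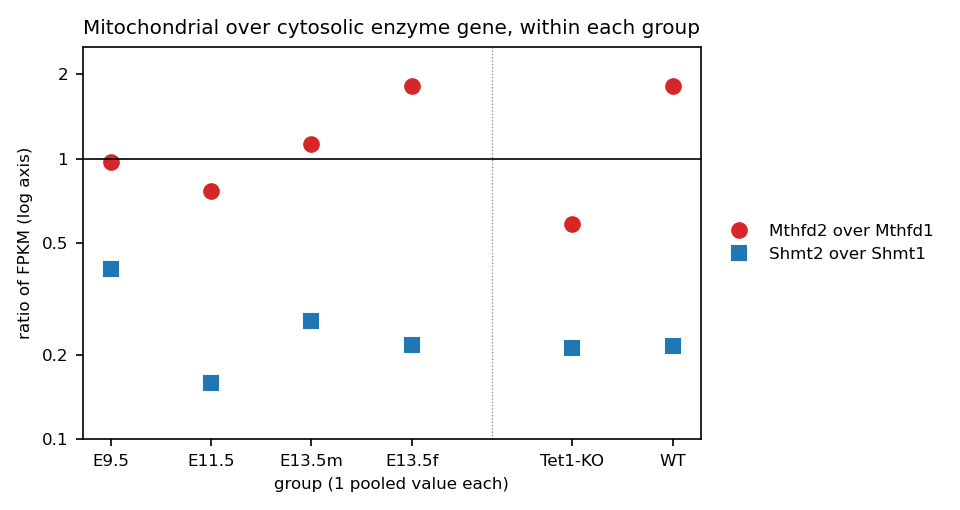
Ratio of the mitochondrial to the cytosolic enzyme gene (log axis) within each group, for Mthfd2 over Mthfd1 (circles) and Shmt2 over Shmt1 (squares). Each point is a ratio of 2 pooled FPKM values; Mthfd2 over Mthfd1 is 0.586 in Tet1-KO and 1.81 in WT, while Shmt2 over Shmt1 is 0.211 in Tet1-KO and 0.214 in WT.

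Around these enzymes, 6 lists held 64 further genes. Whether any list was called more often than all tested genes was not tested. From E9.5 to E11.5, 5.63% of all tested genes were called. Relative to the median ratio the share of all genes was 4.66% from E9.5 to E11.5, 10.8% from E11.5 to E13.5f and 3.50% in Tet1-KO. Between E9.5 and E11.5, 1 of 5 tested partners of glycine cleavage and threonine breakdown was called: Gcat, which takes over the product of Tdh, rose to 159 FPKM at E11.5, against 78.3 FPKM at E9.5, though not relative to the median ratio (adjusted p 0.209). Of 10 tested methionine and transsulfuration genes, 1 rose and 0 fell: Cbs, which condenses serine with homocysteine, was at 25.5 FPKM at E11.5 and 6.54 FPKM at E9.5. Of 7 tested transporters 1 fell, the neutral amino acid carrier gene Slc1a5, to 16.4 FPKM at E11.5, against 50.7 FPKM at E9.5. Of 6 purine synthesis genes 0 were called by Cuffdiff in any of the 4 comparisons. Of 11 tested genes of ATF4 and its other targets 1 rose, Sesn2, and relative to the median it was not called (adjusted p 0.145). Called only relative to the median, all lower at E11.5, were Slc19a1 (adjusted p 0.00256), Slc38a2 (adjusted p 0.0373) and Atf5 (adjusted p 0.0393).

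From E11.5 to E13.5f, where 12.0% of all tested genes were called, 1 of 5 tested glycine cleavage and threonine partners rose (Dld, above). Of 12 tested folate genes 1 rose and 1 fell. Slc46a1, a proton-coupled folate transporter gene, rose to 17.7 FPKM in E13.5f, against 5.07 FPKM at E11.5, though not relative to the median (adjusted p 0.0595), and Aldh1l2, a mitochondrial formyl-folate dehydrogenase gene, was at 0.0702 FPKM in E13.5f and 0.836 FPKM at E11.5. Of 10 methionine genes 1 rose, Bhmt, to 3.83 FPKM in E13.5f, against 0.373 FPKM at E11.5. Of 7 transporters, the glycine carrier gene Slc6a9 rose to 3.24 FPKM in E13.5f, against 0.193 FPKM at E11.5, and the large neutral amino acid carrier gene Slc7a5 fell to 15.9 FPKM in E13.5f, against 52.2 FPKM at E11.5. The ATF4 list had 1 rise among 10 tested: Trib3, a pseudokinase gene, was at 70.7 FPKM in E13.5f and 9.33 FPKM at E11.5. Called only relative to the median was the purine synthesis gene Gart, at 63.2 FPKM in E13.5f and 131 FPKM at E11.5 (adjusted p 0.0258).

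From E11.5 to E13.5m, calls in these lists numbered 2, where 4.88% of all tested genes were called. Trib3 rose to 63.5 FPKM in E13.5m, against 9.56 FPKM at E11.5, the 1 call among 10 tested genes of the ATF4 list. Folr1, a folate receptor gene, fell to 10.9 FPKM in E13.5m, against 65.1 FPKM at E11.5, a log2 ratio of -2.58 ± 0.63 (SE) and the 1 call among 12 tested folate genes. None of the tested glycine partners (5), methionine genes (10) or transporters (7) was called there by Cuffdiff. In the difference of E13.5m and E13.5f, 0 genes of the 6 lists passed the normal test.

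In Tet1-KO, 6.16% of all tested genes were called, 5.48% lower and 0.677% higher. Of 14 tested folate genes 1 fell, the reduced folate carrier gene Slc19a1, at 11.5 FPKM in Tet1-KO and 25.7 FPKM in WT. Of 10 transporters 1 rose, Slc7a5, at 39.4 FPKM in Tet1-KO and 16.5 FPKM in WT, a log2 ratio of 1.25 ± 0.35 (SE). Of 12 tested genes of the ATF4 list, Trib3 and Pycr1, a proline synthesis gene, fell and Cebpb rose. Trib3 was at 31.9 FPKM in Tet1-KO and 74.3 FPKM in WT, Pycr1 at 3.86 FPKM in Tet1-KO and 11.4 FPKM in WT, and Cebpb at 9.27 FPKM in Tet1-KO and 1.72 FPKM in WT. Relative to the median the falls of Slc19a1 (adjusted p 0.258), Trib3 (adjusted p 0.151) and Pycr1 (adjusted p 0.193) were not called, and the rises of Slc7a5 and Cebpb were. Of 7 glycine partners and 12 methionine genes 0 were called.

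**Figure D4:**
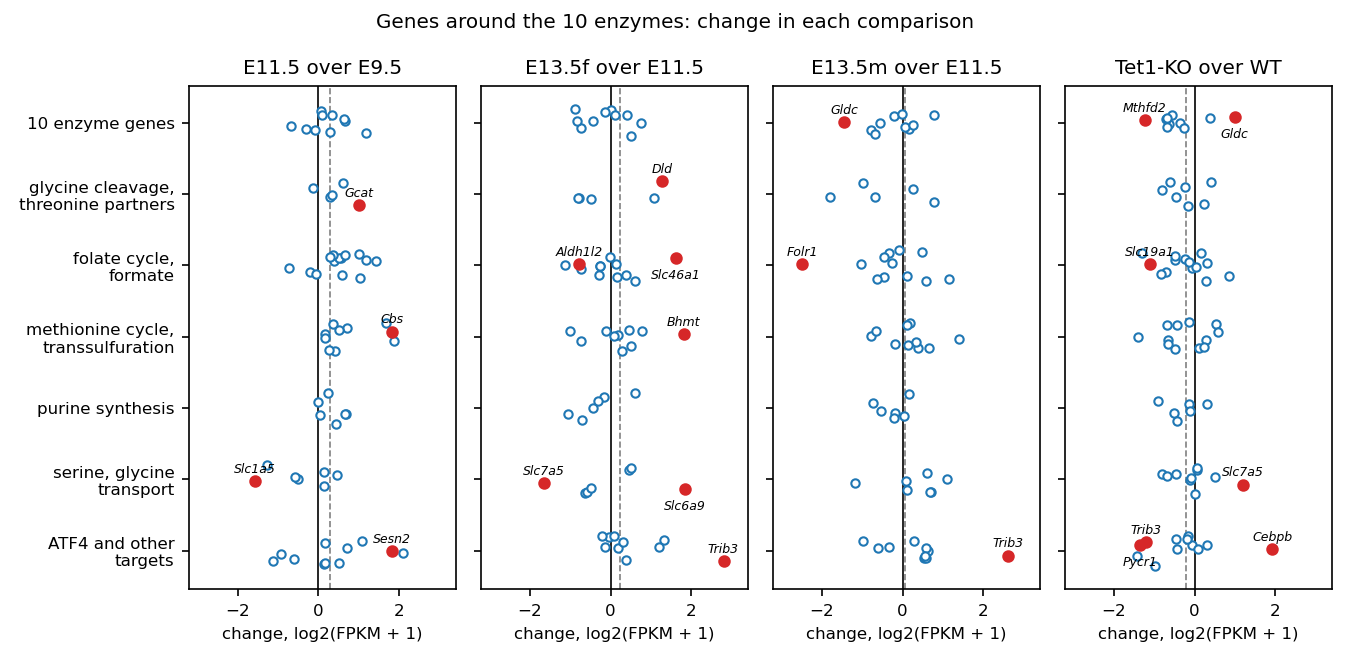
Change in log2(FPKM + 1) of the tested genes of the 10 enzymes and 6 surrounding lists in the 4 comparisons. Each point is a gene, filled red points were called in the authors' deposited tables and are named, the dashed line is the median of all tested genes, and vertical scatter within a list has no meaning. Most points are open, and no purine synthesis gene is filled in any panel.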

How the data were processed

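The members and gene lists were chosen with earlier results of these data known. Per the submitters' processing notes, reads were handled with Bowtie, TopHat 1.3.1, Cufflinks and Cuffdiff (1.2.1 for the stage libraries, 1.0.3 for WT and Tet1-KO) on mm9; strand and annotation are not given in the sources used here. RNA came from 400 to 5000 cells per library for the stage samples and 500 to 2000 cells for WT and Tet1-KO, and cDNA was amplified, per the labels' protocols.

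The authors deposited 1 pooled FPKM per group, per the file headers, with p-values and q-values. The test statistic of the stage tables and the FDR of the Tet1 table, where 2182 values exceed 1, are treated as a score deposited by the authors. Calls in Tet1-KO use that FDR as deposited, and adjusting the p-values again called the same 2 members.

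Ratios were computed again from FPKM. The SE is the log2 ratio divided by the deposited statistic (at least 0.001) or, for Tet1-KO, by the normal deviate of the p-value (at least 0.05). List changes used a pseudocount of 1. The E11.5 columns set the common scale, with factors of 0.870 for the E9.5 table and 0.976 for the E13.5m table. The tests relative to the median and of E13.5m against E13.5f were tested on simulated data. The simulated noise used the same SEs as the tests, so it could not check those SEs. It was drawn independently for E13.5m and E13.5f, so it could not check the error they share through E11.5. The alternatives tried were a stricter threshold (0.01), a repeated adjustment, at least 1 FPKM, an absolute log2 ratio of 1, centring and a pseudocount of 0.1. Genes named were all 10 members and, of each list, every called gene where 4 or fewer were called. 1 gene of the lists is not reported here. Symbols were matched with RefSeq synonyms (GRCm38.p6). Scripts ran in Python 3.11.15 with scipy 1.17.1, pandas 2.3.3, numpy 2.4.6 and, for figures, matplotlib 3.10.9.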

Additional observations from a re-analysis of the deposited data

How the results depend on the processing

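At a threshold of 0.01 the genes called were 0 of the 10 from E11.5 to E13.5m and 1 in Tet1-KO (Mthfd2), where a threshold of 0.05 called 1 from E11.5 to E13.5m and 2 in Tet1-KO. Centred on the median ratio, 1 gene was called in Tet1-KO (Gldc). The count of members called held in all other alternatives and comparisons run, including 0 from E9.5 to E11.5, from E11.5 to E13.5f and for E13.5m minus E13.5f. Of 240 values of single members under the alternatives, 237 stayed the same and 3 lost their call. For the pseudocount, the same means that the log2 change moved by less than its SE. The threshold of 0.01, the minimum of 1 FPKM and the log2 ratio of 1 can only remove calls. Under these 3 settings a gene without a call, and a count of 0, could not change. All members were at 4.89 FPKM or more in every group, so the minimum of 1 FPKM could change no member at all. Repeating the adjustment in the stage tables returned nearly the same adjusted p-values for the members. Many of the 240 values were therefore bound to stay the same. Centring turned the sign of 7 of 40 log2 ratios, 3 from E9.5 to E11.5 (Psat1, Mthfd2, Mat2a), 2 from E11.5 to E13.5f (Shmt2, Mat2a) and 2 in Tet1-KO (Tdh, Mat2a), of which 0 were called by Cuffdiff or after centring. Over all genes, Tet1-KO had 1010 calls, 111 higher and 899 lower, and 481 relative to the median, 264 higher and 217 lower. No library could be left out, and no value shows how libraries of a group vary. No paired analysis was possible because the columns hold pooled groups with no replicate number.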
